A study of Mus musculus with 42 samples.

Results

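The E2f transcription factors and their Dp dimerization partners were examined in 42 single mouse retinal cells. The members were taken by gene symbol: E2f1 to E2f8, Tfdp1 and Tfdp2, which made 10 of the 18194 genes measured. A gene's value in a cell was the highest MAS 5.0 signal among the probe sets that name it alone, and a gene was called present at a signal of 1000 or more. The 42 cells were labelled as retinal progenitor cells (RPCs) of CD1 mice and came from 11 E12.5, 4 E13.5, 2 E14.5, 1 E15.5, 11 E16.5 and 13 P0 cells, where E is the embryonic day and P0 the day of birth. All mice were of the same outbred background, with no transgene and no treatment. Each cell was picked by hand from a papain digest, amplified by PCR and hybridized alone to an Affymetrix mouse 430 2.0 array. Its class was assigned afterwards from its expression profile, for progenitors from genes that accompany Ccnd1, Fgf15, Sfrp2 and Crym. The authors classed 6 of the 42 cells as transitional, because a score for another cell type was significant beside the highest, progenitor score. Their text names E14.5 cell B1 and E16.5 cell F1 among these. The others, E13.5 A6, E16.5 D5, E16.5 E5 and P0 C5, were read from their classification figure. No label tied a cell to an animal or litter, so each stage was treated as 1 sample of cells, no test between stages was made, and the intervals given cover counting error only.

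E2f proteins bind DNA at a short GC-rich site in the promoters of genes for DNA replication and mitosis, and most of them bind it as a dimer with a Dp protein. E2f1, E2f2 and E2f3 are the activators, which switch these genes on once the retinoblastoma family of pocket proteins lets go of them. E2f4, E2f5 and E2f6 are repressors, and E2f7 and E2f8 are atypical repressors that bind DNA without a Dp partner. In the developing retina this network sets the pace of progenitor division and the exit from the cell cycle.

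Some members hold the letters of an E2f site in their own promoter. RefSeq promoters (GRCm38.p6, 250 bases before to 50 after a start site) were at hand for 8 members, with 12 start sites, and were searched on both strands for TTTCCCGC, TTTGGCGC, TTTCGCGC and TTTGCCGC. Of all 32851 promoters 2.26% held a match. Among the members 5 of the 12 promoters did, in E2f2, E2f3, E2f7 and Tfdp1, and the 30-base windows that hold it are shown to place the letters relative to each start. Capitals mark the match, which reads in reverse in the last 3 windows.
E2f2, chr4:136172294-136172323, plus strand, 40 bases after the start: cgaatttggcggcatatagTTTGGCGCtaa
E2f3, chr13:29986056-29986085, minus strand, 11 bases before the start: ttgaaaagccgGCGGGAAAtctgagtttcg
E2f7, chr10:110745230-110745259, plus strand, 198 bases before the start: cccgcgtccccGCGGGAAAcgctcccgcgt
Tfdp1, chr8:13338697-13338726, plus strand, 43 or 96 bases before its 2 annotated starts: gggcgccgaagGCGCGAAAaggcgcgcagg
The E2f2 match lies after the annotated start and the other matches before it, although the last bases of the E2f3 window run past the start. The promoters of E2f1, E2f6, E2f8 and Tfdp2 held none of these letters, and those of E2f4 and E2f5 were not searched. A match is a description of sequence and does not show that a factor was bound.

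The marker genes were read first. Ccnd1, Fgf15, Sfrp2 and Crym of the RPC list also served to assign the label, so their presence is no independent check of it. Of the combinations of 10 RPC markers with 42 cells, 74.0% were present, and Ccnd1, the G1 cyclin of these progenitors, was present in 41 cells. Markers of retinal ganglion cells were present in 22.2% of combinations, those of amacrine cells in 14.8% and those of photoreceptors in 7.94%. Nefl, Tfap2b and Nrl of these lists anchored the scores for those cell types in the same assignment. Cells that scored highest as neurons were not labelled RPCs, so these low shares are no independent check either. The 6 transitional cells, which also scored for another cell type, stayed in the set. A list of blood, vessel, microglia, pigment epithelium and lens markers reached 6.25%, and 2.70% once Kdr was set aside. Kdr, set aside after its values were seen, was present in 25 of the 42 cells, among them 12 of the 13 P0 cells. In 1 E13.5 cell 5 of the 16 markers were present, and in 1 E14.5 cell 4. The lens genes Cryaa, Crygs and Mip, also named after their values were seen, were among them in both cells. Single cells held between 1386 and 5253 genes at the level for presence, with a median of 3034. On 5 of the 11 E16.5 arrays the 18 hybridization controls departed from the common pattern, with SDs of 0.644 to 0.667 (log2) against at most 0.197 on the other arrays. These 5 divergent arrays also held more genes, a median of 4103 against 2114.5 on the other 6 E16.5 arrays, and their part in the E16.5 values was not tested.

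At the level of 1000 every cell held at least 1 member, although at least 1 cell held none at a level of 2000, with the mean of the probe sets or among the 2000 genes of highest signal. Of the 420 combinations of member and cell, 145 were present (34.5%), and 240 had a signal under 500. The lowest number of members in a cell was 1 and the highest 8, with a median of 3. Cells without any member numbered 0 of 42, and a true share of up to 8.41% is compatible with that count. The median member was present in 13.5 cells, and the median gene of the 13200 found in at least 1 cell was present in 7. Presence also depends on how well each probe set responds, so the order of the members below is an order of detection and not of transcript number. From the most to the fewest cells it ran Tfdp1 (29 of 42), E2f1 (22), Tfdp2 (21), E2f5 (18), E2f8 (14), E2f6 (13), E2f4 (10), E2f7 (9), E2f2 (7) and E2f3 (2). Neighbours in this order differed by less than their counting error: the interval for Tfdp1 ran from 52.9 to 82.4% and that for E2f1 from 36.4 to 68.0%.

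**Figure D1:**
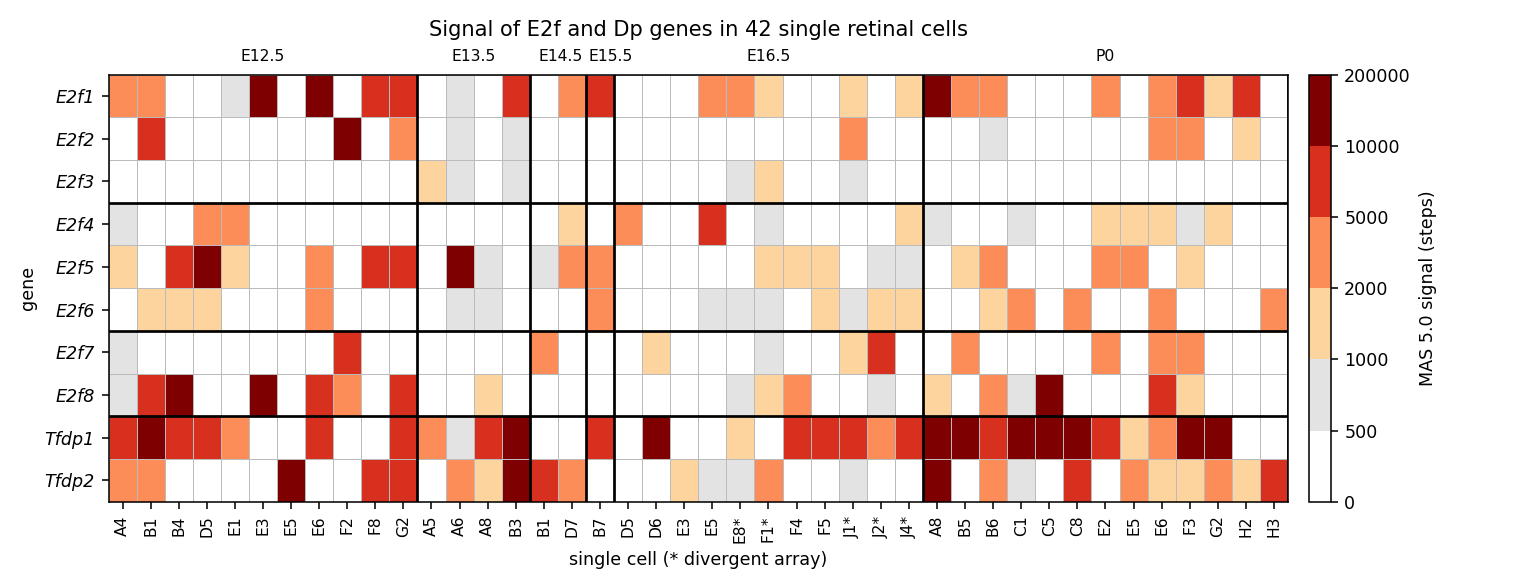
MAS 5.0 signal of the 10 members (rows, grouped as activators, repressors, atypical members and Dp partners) in each of the 42 cells (columns, by stage), in colour steps. White and grey cells are below the level of 1000, and a star marks the 5 divergent E16.5 arrays. Tfdp1 fills 29 of 42 columns and E2f3 only 2.

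Among the activators, E2f1 was the gene seen most often. At E12.5 its signals ran from 95.5 to 35157 with a median of 2723, at E16.5 from 70.04 to 3164 with a median of 395, and at P0 from 72.4 to 26094 with a median of 2824. The 4 E13.5 cells had 97.7, 978, 57.7 and 9856, the 2 E14.5 cells 237 and 3880, and the E15.5 cell 8529. Every stage with more than 1 cell thus held E2f1-high and E2f1-low cells, and the ranges overlapped throughout. The level was passed by 6 of 11 E12.5 cells, 5 of 11 E16.5 cells and 8 of 13 P0 cells. Of the 5 positive E16.5 cells, 4 lay among the 5 divergent arrays and 1 among the remaining 6. In 17 of its 22 cells 2 probe sets agreed on its presence, whereas in E16.5 cell F1 it rested on a cross-hybridizing set at 1105. The highest signals, 35157 in E12.5 cell E3 and 26094 in P0 cell A8, were each found in a cell with few genes, 1865 and 2001.

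E2f2, the activator closest to E2f1 in function, was found in 7 cells: 3 E12.5, 1 E16.5 and 3 P0 cells. Its signal reached 23255 in E12.5 cell F2 and 7563 in E12.5 cell B1, and lay between 1920 and 2917 in the other 5. Of the 7 cells 6 also held E2f1, and the exception was the cell with the highest signal. E2f3, the activator required for entry into S phase in many cultured cells, barely crossed the level. It was present at 1054 in E13.5 cell A5 and at 1019 in E16.5 cell F1, by a different probe set in each. The E12.5 cells gave 0 of 11, compatible with up to 28.5% of cells, and the P0 cells 0 of 13, compatible with up to 24.7%.

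The repressor E2f5, which acts mainly with the pocket protein p130 in resting and early G1 cells, was the repressor detected most often. Its signals ran from 8.32 to 10964 with a median of 1589 at E12.5, from 19.1 to 1967 with a median of 453 at E16.5, and from 8.69 to 4618 with a median of 103.5 at P0. The E13.5 cells had 48.1, 164835, 507 and 54.2, the E14.5 cells 633 and 3884, and the E15.5 cell 3766. The E12.5 cells were the ones most often above the level, 7 of 11 against 3 of 11 E16.5 and 5 of 13 P0 cells, and the ranges overlapped. The value of 164835 in E13.5 cell A6, a transitional cell, was also seen by a second E2f5 probe set, at 117129. It thus did not come from 1 probe set alone. In 13 of the 18 cells 2 probe sets were past the level.

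E2f4, the most abundant E2f of many resting tissues, was present in 10 cells at signals of 1031 to 5231. It passed in 2 of 11 E12.5, 3 of 11 E16.5 and 4 of 13 P0 cells. The 4 P0 values, 1031, 1322, 1221 and 1788, were all close to the level. E2f6, a repressor that lacks the pocket protein binding domain and works with Polycomb proteins, was present in 13 cells at 1041 to 4496. The counts were 4 of 11 E12.5, 3 of 11 E16.5 and 5 of 13 P0 cells. Its 2 probe sets were never past the level together, and 12 of the 13 cells were called by the same set. The repressors were the class with most values near the level, as the counts at other levels in the closing section show.

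E2f7 and E2f8 are the atypical members, which are themselves E2f targets and hold E2f1 in check. E2f8 was present in 14 cells. Its signals ran from 4.74 to 12378 with a median of 3976 at E12.5, from 42.3 to 4600 with a median of 346 at E16.5, and from 17.6 to 25116 with a median of 412 at P0. The E13.5 cells had 42.1, 431, 1399 and 139, the E14.5 cells 67.3 and 183, and the E15.5 cell 92.7. It was thus above the level in 6 of 11 E12.5 cells, 2 of 11 E16.5 cells and 5 of 13 P0 cells. The highest value, 25116, was that of P0 cell C5, a transitional cell in which no member of E2f1 to E2f7 was present. E2f7 was present in 9 cells at 1136 to 6811, with 1 of 11 E12.5, 3 of 11 E16.5 and 4 of 13 P0 cells.

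The Dp partners were present in 50 of 84 combinations (59.5%, 95% interval 48.3 to 70.1, with combinations counted as independent). Tfdp1, the main partner of the E2f proteins, had signals of 6.19 to 14092 with a median of 7195 at E12.5, of 7.27 to 12514 with a median of 2679 at E16.5, and of 20.6 to 39018 with a median of 10584 at P0. The E13.5 cells had 2701, 689, 6475 and 27261, the E14.5 cells 21.4 and 445, and the E15.5 cell 6434. Its values were divided: the lowest present value was 1165 and the highest absent one 689, and 11 of 13 P0 cells were above the level against 7 of 11 at both E12.5 and E16.5. Tfdp2, the second partner, had signals of 85.1 to 22641 with a median of 236 at E12.5, of 118 to 2046 with a median of 489 at E16.5, and of 50.9 to 11140 with a median of 1964 at P0. The E13.5 cells had 70.8, 3363, 1556 and 12105, the E14.5 cells 8881 and 4658, and the E15.5 cell 50.5. Of the E12.5 cells 5 of 11 passed, of the E16.5 cells 2 of 11 (18.2%, interval 2.28 to 51.8) and of the P0 cells 9 of 13 (69.2%, interval 38.6 to 90.9). Its 4 probe sets did not always speak together, since at least 2 were past the level in 13 of 21 cells and the value of 22641 in E12.5 cell E5 was carried by 1 set.

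**Figure D2:**
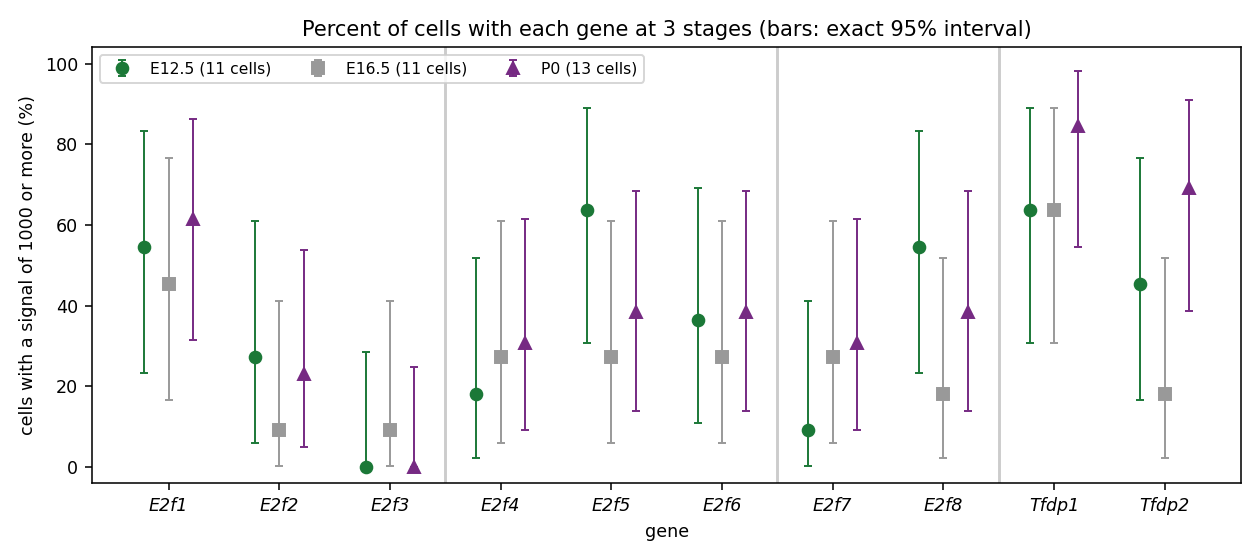
Percent of cells with each member at a signal of 1000 or more (vertical axis) at E12.5, E16.5 and P0. Points are shares and bars exact 95% intervals over 11, 11 and 13 cells. The intervals of the 3 stages overlap for every gene, and Tfdp2 has the lowest E16.5 point relative to P0, 18.2% against 69.2%.

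The percent of cells with each gene was then compared between the first and the last stage. None of the 10 members was 30 points or more higher at P0, where 6.52% of the 13200 genes were, and none was 30 points or more lower, where 2.1% were. The median difference was 4.55 points over the members and 0 over all genes. Tfdp2 was 23.8 points higher at P0 (Newcombe 95% interval -14.0 to 54.0), E2f7 21.7 points (-12.2 to 49.6) and Tfdp1 21.0 points (-13.2 to 51.3). E2f5 was seen less often at P0, with a difference of -25.2 (-54.8 to 13.2), and E2f8 had a difference of -16.1 (-48.0 to 21.1). The differences of the other 5 members lay between -4.20 and 12.6 points. All 10 intervals included 0, and they are wide enough to hide large changes in either direction. These values depended on the processing: E2f5 passed 30 points with the mean of the probe sets (-39.2, interval -65.8 to -1.41) and among the 2000 genes of highest signal (-37.8, interval -65.0 to -2.53), E2f8 had -31.5 (interval -59.9 to 6.52) under both and at a level of 2000, and Tfdp2 ranged from -5.59 among the 2000 genes to 31.5 at a level of 500.

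By class, activators were present in 24.6% of combinations (31 of 126, interval 17.4 to 33.1), repressors in 32.5% (41 of 126, interval 24.5 to 41.5) and atypical members in 27.4% (23 of 84, interval 18.2 to 38.2). These intervals overlapped. Over the E12.5, E16.5 and P0 cells in turn, activators had 27.3, 21.2 and 28.2%, repressors 39.4, 27.3 and 35.9%, and atypical members 31.8, 22.7 and 34.6%. The Dp partners stood at 54.5, 40.9 and 76.9%. Of the 7 activator values at E16.5, 6 came from the 5 divergent arrays, and the other 6 arrays had 1 of 18 combinations.

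The number of members in a cell went along with the number of genes seen in it. Over the 42 cells Pearson's r was 0.55 and Spearman's rho 0.55, and r was 0.49 without the 2 cells farthest from the median number of members. Within the E12.5, E16.5 and P0 cells r was 0.51, 0.90 and 0.60. Cells share an amplification and an array with all their genes, so these coefficients are given as a description. The fullest cells were P0 E6, with 8 members and 4182 genes, and P0 F3, with 7 members and 4498 genes. Each of these held E2f1, E2f2, E2f7, E2f8, Tfdp1 and Tfdp2. The cells with 1 member were E12.5 E5 (Tfdp2), E16.5 D5 (E2f4) and E16.5 E3 (Tfdp2), with 2088, 1386 and 1674 genes.

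**Figure D3:**
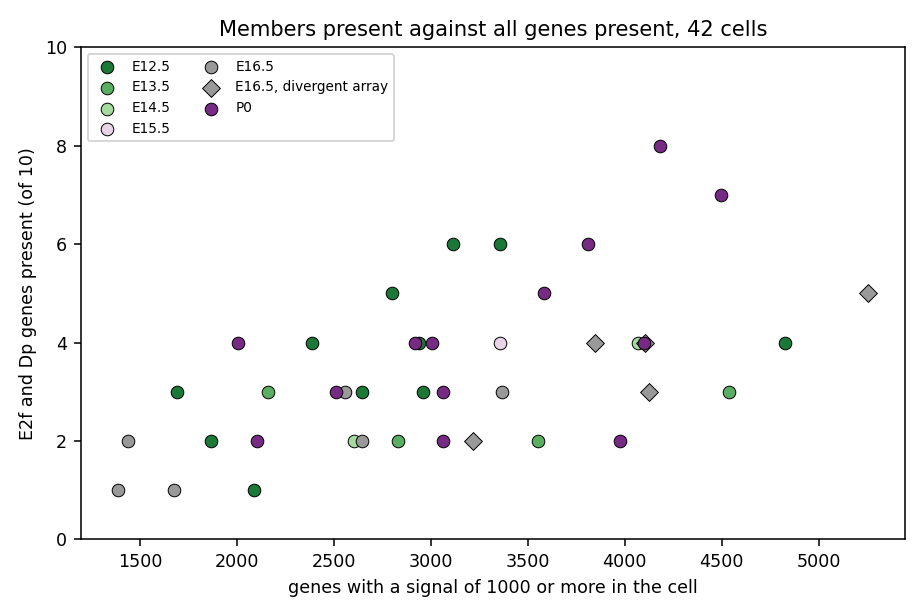
Number of the 10 members present (vertical axis) against the number of all genes present (horizontal axis) in each of the 42 cells, coloured by stage, with diamonds for the 5 divergent E16.5 arrays. Cells with more genes held more members, from 1 member at 1386 genes to 8 at 4182.

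Activators and repressors were found both together and apart, and the phi of the 2 classes was 0.00, where phi is the correlation of 2 presence calls over the 42 cells. At least 1 activator was present in 24 cells and at least 1 repressor in 28, and both classes were present in 16 (38.1%, interval 23.6 to 54.4), so that 66.7% of the cells with an activator held a repressor, the same as the 66.7% of all cells. An activator without a repressor was seen in 8 cells, a repressor without an activator in 12, and neither in 6. Activator-only cells occurred at E12.5 (E3 and F2), E13.5 (A5 and B3), E16.5 (E8 and J1) and P0 (A8 and H2), so neither state belonged to 1 stage. All 4 classes were present together in 9 cells: 3 E12.5, 1 E16.5 and 5 P0 cells.

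Dp transcripts were present in 38 of the 42 cells, whether or not an E2f that pairs with them was seen. One of E2f1 to E2f6 was present in 36 cells, and 32 of these held Tfdp1 or Tfdp2 (88.9%), as did all 6 of the remaining cells, against 90.5% over all 42. The 4 without either were E12.5 E3, E12.5 F2, E16.5 D5 and E16.5 E5, with a median of 1564.5 genes, and E12.5 E3 was the cell with the highest E2f1 signal. E2f6 was found with Tfdp1 in 12 of its 13 cells (phi 0.34), E2f5 in 14 of 18 (phi 0.16), E2f1 in 16 of 22 (phi 0.08) and E2f4 in 7 of 10 (phi 0.01). The partners themselves were more often apart than together: 12 cells held both, 17 Tfdp1 alone and 9 Tfdp2 alone (phi -0.26). Cells with both were found at E12.5 (3), E13.5 (2) and P0 (7), while the E16.5 cells gave 0 of 11, compatible with up to 28.5%.

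E2f7 and E2f8, the atypical members, were present together in 3 cells, E12.5 F2, P0 E6 and P0 F3, which was 3 of 9 cells with E2f7 and 3 of 14 with E2f8 (phi 0.00). All 3 of these cells also held E2f2. Among the 45 pairs of members the highest phi was that of E2f2 with E2f7 (0.39, 4 cells), followed by E2f2 with E2f8 (0.36, 5 cells), and the lowest was that of E2f4 with E2f8 (-0.28, 1 cell). Of the 20 cells with an atypical member 13 held an activator (65.0%), against 57.1% of all 42 cells (phi 0.15).

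**Figure D4:**
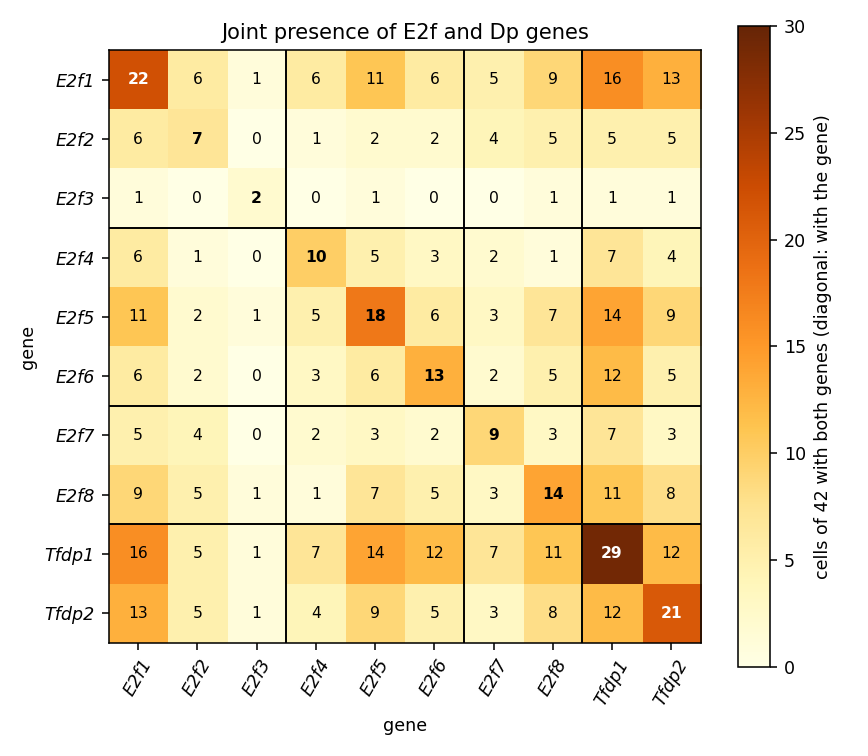
Number of the 42 cells in which both genes of a pair were present (off the diagonal) and in which each gene was present (diagonal, bold). E2f6 shares 12 of its 13 cells with Tfdp1, while E2f7 and E2f8 share 3 cells and Tfdp1 and Tfdp2 share 12.

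The pocket proteins hold E2f proteins inactive until Cdk phosphorylation frees them. Rb1 was present in 17 cells, among them 5 of 11 E12.5 cells, 8 of 13 P0 cells and 0 of 11 E16.5 cells (compatible with up to 28.5%). Rbl1 (p107) was present in 11 cells, and 1 of 11 at E12.5 against 6 of 13 at P0 gave a difference of 37.1 points (0.360 to 62.9). Of the 13200 genes 3.74% were as far higher at P0. Rbl2 (p130) was present in 7 cells. On the 5 divergent arrays 0 of 15 combinations were present, although these arrays held more genes than the other E16.5 arrays. With 0 of 5 cells holding a pocket protein, a share of up to 52.2% of cells is compatible. E2f1 and Rb1 were found together in 11 cells, 6 of them at P0. E2f4 met Rbl1 or Rbl2 in 2 of its 10 cells and E2f5 in 7 of its 18, while 16 of all 42 cells (38.1%) held Rbl1 or Rbl2.

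Other genes around the family were read from fixed lists. Of the G1 cyclins and kinases, Ccnd1 and Cdk4 were each present in 41 cells, Cdk6 in 23 and Cdk2 in 21. In this list Cdk6 was 39.2 points higher at P0 (1.41 to 65.8), while Ccnd3 and Ccne2, named here after their values were seen, differed by -57.3 (-78.1 to -17.6) and -30.1 points (-58.8 to 6.07). Among the 7 Cdk inhibitors, Cdkn1b was present in 25 cells, Cdkn2d in 18, Cdkn2c in 13 and Cdkn1c in 8, and Cdkn2d was 32.9 points higher at P0 (-6.12 to 60.7). The partners of the DREAM and Myb complexes gave Rbbp4 in 37 cells, Foxm1 in 19, Mybl2 in 15 and Lin54 in 9. Lin37 and Lin54 passed 30 points, being found in 0 of 11 E12.5 cells and in 6 and 4 of 13 P0 cells. Their intervals were 11.6 to 70.9 and -0.808 to 57.6. Of all 13200 genes 6.52% were 30 points or more higher at P0, 1.46% were as far higher as Lin37 and 6.23% as Lin54. In the E2f6 complex Rnf2 was present in 32 cells, Ehmt2 in 27, Ehmt1 in 20 and Yaf2 in 18, and Rnf2 passed 30 points toward P0 (2.53 to 65.0). Pcgf6, its defining Polycomb subunit, was present in 11 of the 42 cells and was found with E2f6 in 3. Pro-apoptotic E2f targets were scarce, with Bcl2l11 in 14 cells, Apaf1 in 10, Bbc3 in 3, Trp73 in 2 and Pmaip1 in 0 (compatible with up to 8.41%).

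The classic targets of the activators were broadly present. Of 29 S phase genes, Pcna was found in 37 cells, Mcm7 in 35, Mcm2 in 34 and Slbp in 34, and a cell held a median of 16 (5 to 28). Prim1 was 30 points or more higher at P0 (interval 1.41 to 65.8). Cdc45 (-67.1 to -2.21) and Mcm7 (-57.6 to 0.808) were as far lower. Of 19 G2/M genes, Top2a was found in 35 cells and Ccna2, Cdk1 and Mki67 in 33 each, with a median of 11.5 per cell (0 to 19). Aurkb (interval -6.52 to 59.9) and Birc5, Tpx2 and Ube2c (each -6.07 to 58.8) passed 30 points toward P0, and none in the list fell by as much. All 4 intervals included 0. Over all 13200 genes 6.52% rose and 2.1% fell by 30 points or more.

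The number of activators in a cell went along with the number of S phase genes (r 0.45, rho 0.43, 42 cells). The coefficient was 0.68 at E12.5 and 0.80 at P0, but 0.04 at E16.5, and over all cells but the 5 divergent arrays it was 0.55. E2f1 and E2f2 each carried it, with r of 0.44 and 0.46 between presence and the number of S phase genes. At P0 the 3 cells with both E2f1 and E2f2 held 28, 26 and 21 of the 29 genes, and the 5 cells with no activator held 19, 10, 10, 9 and 7. Both quantities also moved with the number of genes seen in a cell, since r of all genes present with S phase genes was 0.50 and with activators 0.32. As a share of the genes present, the S phase genes gave r of 0.29 with E2f1 and 0.34 with E2f2, and for E2f1 it was 0.49 among the E12.5 cells, -0.49 among the E16.5 cells and 0.68 among the P0 cells. With the G2/M genes the activators had r of -0.18 (between -0.33 and -0.23 within the 3 larger stages), whereas r of all genes present with G2/M genes was 0.32.

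The number of repressors had r of 0.38 (rho 0.39) with the G2/M genes and 0.11 with the S phase genes. With the number of genes per cell fixed at the 2000 of highest signal, the coefficient with G2/M genes was 0.078. Among the E12.5 cells r with G2/M genes was 0.65, among the E16.5 cells -0.11 and among the P0 cells 0.39. E2f5 carried most of it, with r of 0.45 over the 42 cells and 0.82 at E12.5. The 7 E12.5 cells with E2f5 held 17, 15, 18, 18, 5, 18 and 12 G2/M genes, and the 4 without it 5, 4, 4 and 2. E2f5 was also seen more often in cells with more genes (r 0.36), and as a share of the genes present the coefficient with G2/M genes was 0.23 over all cells and 0.72 at E12.5, but -0.015 among the E16.5 cells and 0.034 among the P0 cells. Atypical members had r of 0.43 with the S phase genes and -0.04 with the G2/M genes. E2f8 at E12.5 had r of -0.61 with the G2/M genes, opposite in sign to E2f5 in the same 11 cells. For E2f8 this did not extend to other cells, with r of -0.04 over all 42, -0.07 at E16.5 and 0.14 at P0.

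**Figure D5:**
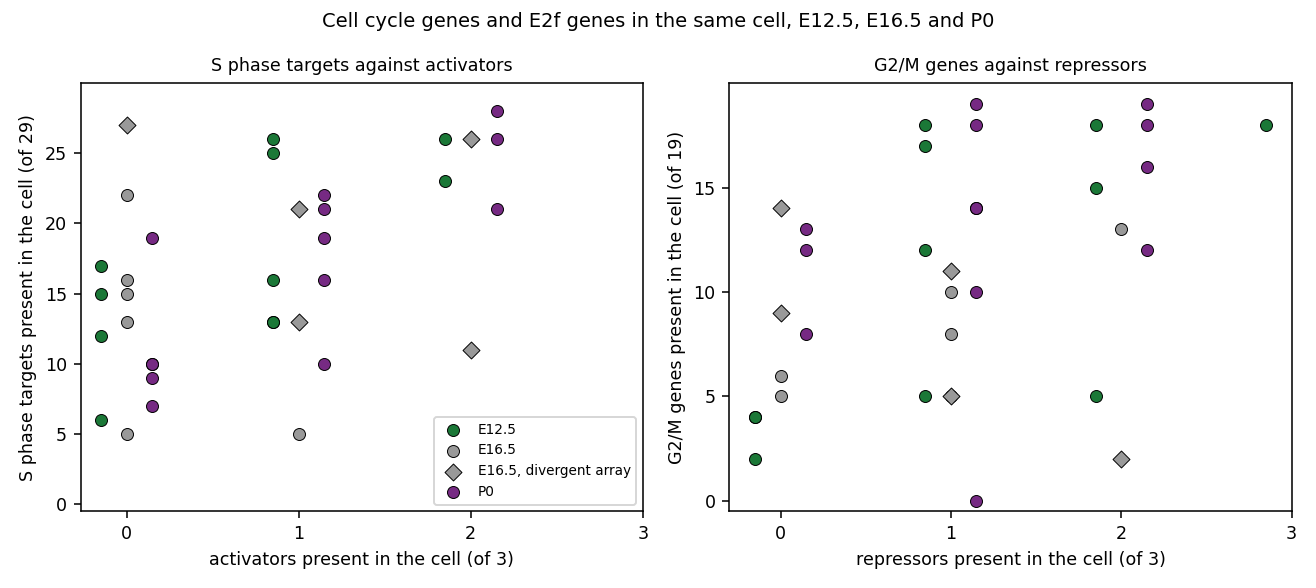
Number of S phase genes (left, of 29) against activators and of G2/M genes (right, of 19) against repressors in the E12.5, E16.5 and P0 cells. Points are cells, set slightly apart by stage, with diamonds for the 5 divergent arrays. P0 cells rise from 7 to 28 S phase genes with the number of activators (r 0.80), and E12.5 cells from 2 to 18 G2/M genes with the number of repressors (r 0.65).

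The genes most like each member in presence were drawn from the whole array. For E2f5 they were Pak4 (phi 0.61), Cenpf (0.58) and Iqcb1 (0.58). Cenpf, a kinetochore protein of G2 and mitosis, was present in 17 of the 18 cells with E2f5 and in 26 of all 42. For E2f8 they were Ppm1d (0.62), Ndufab1 (0.56) and Clspn (0.55). Clspn, which is needed for the replication checkpoint, was present in all 14 cells with E2f8 and in 26 of all 42. For Tfdp1 they were Bclaf1 (0.78), Pnrc2 (0.67) and Top2b (0.65). Bclaf1 and Pnrc2 were present in all 29 cells with Tfdp1, and in 33 and 35 of all 42. E2f1 was matched by Actn4 (0.57), Tmem50b (0.54) and Bod1 (0.53), E2f4 by Zbtb24 (0.66), Abitram (0.58) and Atg4c (0.58), and E2f6 by Cnot8 (0.62), Ubxn2a (0.61) and Fam171a1 (0.59). E2f7 was matched by Zup1 (0.62), Vldlr (0.62) and Tinf2 (0.58), and Tfdp2 by Ergic2 (0.59), Yme1l1 (0.58) and Golm2 (0.53). These are the highest of 13200 values over 42 cells and so are high in part by selection. E2f2 and E2f3 were present in too few cells for such a list.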

How the data were processed

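Total RNA of 42 single retinal cells was reverse transcribed with an oligo dT primer, amplified by 35 cycles of PCR and hybridized, 1 cell per array. The authors computed the deposited intensity values with MAS 5.0 and scaled each array globally to a target of 500, so amplification error and distance from the 3' end enter every signal. Of 45101 probe sets, 34958 had 1 gene symbol, 932 several and 9211 none in the platform annotation, and 34754 matched RefSeq by gene identifier. A gene took its highest signal (21 probe sets for the members) and was present at 1000. Shares carry exact Clopper-Pearson 95% intervals and differences Newcombe intervals, computed in Python 3.11.15 (NumPy 2.4.6, SciPy 1.17.1, pandas 2.3.3) and tested on simulated data. A difference of 30 points was counted as a change.

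The 18 lists (members and their 4 classes, pocket proteins, DREAM and Myb partners, E2f6 complex, G1 cyclins and kinases, Cdk inhibitors, S phase, G2/M and apoptosis genes, and 5 sets of cell type markers) and the members were chosen with earlier results of these data known. Named were all members, the 3 genes of highest phi for members in 8 to 34 cells, the 4 genes in the most cells of each list (pocket proteins in full, cell type markers not), and others only as stated. Some genes of these lists are not reported here. Alternatives were levels of 500 and 2000, the mean of probe sets, no _x_at or _s_at sets, the 2000 highest genes per cell, and leaving out 5 arrays or the 6 transitional cells. The number of arrays limits the precision.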

Additional observations from a re-analysis of the deposited data

Results flagged for a closer look

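Only the 4 E13.5 cells form a stage of 4 to 10 cells, the size searched for a single departing cell. In 2 quantities 1 cell stood apart from the other 3. E2f5 had a signal of 164835 in E13.5 cell A6, and the nearest cell had 507. E2f1 had a signal of 9856 in E13.5 cell B3, and the nearest cell had 978. The limit used marks about 1 in 20 groups of normally distributed values by chance. These signals were not log transformed and are strongly skewed, so chance marks more groups here, by an unknown amount. The cause was not tested.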

How the results depend on the processing

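Of 37 results under 7 alternatives, 258 values were obtained, since ranking the 2000 highest genes per cell fixes the number of genes and gives no coefficient of members with genes present. Of these 235 lay within the interval of the main value. The intervals are wide, so lying within one says little. The move of E2f5 from -25.2 to -39.2 points counted as within, as did the changes of sign given below. For members per cell the interval was the median plus or minus the SD over cells. At a level of 2000, E2f3 was present in 0% of cells, E2f4 in 9.52%, E2f5 in 26.2% and E2f6 in 14.3%, repressors in 16.7% of combinations, activator with repressor in 21.4% of cells and an E2f with a Dp partner in 54.8%. At 500, repressors reached 44.4%. With the mean of the probe sets, E2f3 was at 0% and repressors at 23.8%. Among the 2000 highest genes per cell, E2f3 was at 0%, E2f4 at 7.14%, E2f5 at 21.4%, E2f6 at 4.76% and Tfdp2 at 33.3%, activators at 15.9%, repressors at 11.1% and Dp partners at 47.6% of combinations, activator with repressor at 16.7%, an E2f with a Dp partner at 40.5%, both Dp partners at 11.9% and all 4 classes at 4.76% of cells, and r of repressors with G2/M genes was 0.078. Stricter levels call fewer genes by construction. Leaving out the 5 arrays, the 6 transitional cells or the _x_at and _s_at sets moved no value out of its interval. The 5 arrays are all E16.5 arrays, so leaving them out could not change the differences between E12.5 and P0. The values of the E16.5 stage, in which these arrays weigh most, were not among the 37 results.

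The differences of E2f5, E2f8 and Tfdp2 passed 30 points under some alternatives, as given above. In 8 cases a difference changed sign, for E2f1, E2f2, E2f4, E2f6 and Tfdp2. No paired analysis was possible because no result comes from a test.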
